A study of Homo sapiens with 6 samples.

Results

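Amino acid transporter genes were examined in 6 bulk RNA sequencing libraries of Jurkat, a human leukemia line of T-cell origin that is widely used to study T-cell signalling. The members were 10 genes chosen by name, SLC3A2, SLC7A5, SLC7A11, SLC7A1, SLC43A1, SLC1A4, SLC1A5, SLC6A9, SLC38A1 and SLC38A2. The deposited table holds 59248 gene symbols, and each member symbol matched 1 row. The members and the lists set beside them were chosen with earlier results of these data known, so shares of a list are descriptions. Of the 6 libraries, 3 came from cells overexpressing a splicing isoform of PDCD1, the gene of the inhibitory receptor PD-1, and 3 from cells that carried the vector. The isoform, PDCD1-28, keeps 28 bases of intron sequence per the labels. All 6 cultures are described as Jurkat KO-1 cells grown in RPMI medium with fetal bovine serum. What KO-1 stands for, whether either line is 1 clone and whether the replicates are separate cultures are not stated, so the p-values rest on a spread between libraries that may be technical.

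Amino acid transporters of the plasma membrane bring in the building blocks of protein, glutathione and nucleotides, and T cells raise several of them when they are activated. SLC3A2 encodes CD98hc, a single-pass heavy chain that carries a light chain of the SLC7 family to the surface. With LAT1, the light chain encoded by SLC7A5, it takes up leucine and other large neutral amino acids in exchange for intracellular ones. With xCT, the light chain encoded by SLC7A11, it takes up cystine in exchange for glutamate. Many transporter genes are known targets of ATF4, a transcription factor whose translation increases when amino acids are scarce, and which can bind composite C/EBP-ATF response elements. SLC7A11 is also a known target of NFE2L2 (NRF2), and SLC7A5 and SLC1A5 of MYC.

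Promoter windows show which members carry the letters of such an element near an annotated gene start. RefSeq windows on GRCh38.p14, from 250 bases before to 50 bases after a start, were available for 9 of the 10 members, with 16 windows because several genes have more than 1 start; SLC7A11 had none. The core of the C/EBP-ATF element was searched as TGATGNAA on both strands. It was found in 5 of the 16 windows, or 31.2%, and in 3.62% of all 35116 windows of the table; these 5 windows belong to SLC1A4, SLC1A5, SLC38A1, SLC3A2 and SLC7A1. The matches are shown on the strand of the gene, 5′ to 3′, with the 8 matching bases in capitals; in SLC1A4 and SLC3A2 the capitals are the reverse complement of the core.
SLC1A4 (chr2:64989382-64989409, plus strand): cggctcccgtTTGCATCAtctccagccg
SLC1A5 (chr19:46784884-46784931, minus strand): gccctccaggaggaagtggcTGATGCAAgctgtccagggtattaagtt
SLC38A1 (chr12:46266503-46266530, minus strand): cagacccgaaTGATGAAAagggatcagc
SLC3A2 (chr11:62881726-62881748, plus strand): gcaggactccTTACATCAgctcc
SLC7A1 (chr13:29595664-29595691, minus strand): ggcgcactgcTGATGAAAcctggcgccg

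The match in SLC1A5 began 97 bases before the start, those in SLC1A4 and SLC38A1 began 7 and 4 bases before it, and those in SLC3A2 and SLC7A1 lay after it. For SLC1A4, SLC1A5, SLC38A1 and SLC3A2 that start lies inside the gene's annotated span rather than at its end. An antioxidant response element, the site class of NRF2, was searched as TGACNNNGC on both strands. It was found in 4 of the 16 windows, of SLC1A5, SLC3A2, SLC7A1 and SLC7A5, or 25%, against 13.3% of all windows. The E-box CACGTG, which MYC can bind, was found in 3 windows, of SLC1A5, SLC43A1 and SLC7A5, or 18.8%, against 7.26% of all windows. A match is a string of letters and does not show that a factor binds there. To let the surroundings be compared, the 3 E-boxes are printed in capitals with 20 bases on each side.
SLC7A5 (chr16:87869612-87869657, minus strand): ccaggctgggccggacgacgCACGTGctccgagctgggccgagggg
SLC43A1 (chr11:57515789-57515834, minus strand): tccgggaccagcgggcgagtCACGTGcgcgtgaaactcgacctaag
SLC1A5 (chr19:46787318-46787363, minus strand): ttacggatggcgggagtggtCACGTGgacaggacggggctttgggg

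Libraries held 59911578 to 84220970 estimated counts. PDCD1 had 945, 1059 and 807 estimated counts in overexpression replicates 1 to 3 and 14, 18 and 15 in vector replicates 1 to 3, and was higher in each library labelled overexpression; these counts are per gene and do not separate the isoform. Along the second principal component, with 12.1% of the variance, vector replicate 2 stood apart from the other 2 vector libraries. Each of 12 T-cell line markers was expressed above the filter. Their summed level was 2796 to 2849 CPM, that is estimated counts scaled to library size, in overexpression and 3053 to 3269 CPM in vector. Of the 12, 2 were called higher (16.7%) and 8 lower (66.7%), against 22.6% and 23.4% of all genes tested. TRBC1 rose from 414 to 555 CPM and TAL1 from 323 to 394 CPM, and CD3D and CD3E were not called. The largest falls were those of CD2, from 25.6 to 4.32 CPM, and CD7, from 74.4 to 17.5 CPM. Summed markers of other cell types reached 37.0 and 60.1 CPM in overexpression and vector for B cells, mostly CD79A, 14.6 and 28.8 CPM for erythroid cells, 1.18 and 1.96 CPM for myeloid cells, and 1.60 and 0.607 CPM for epithelial and kidney cells. EPCAM and HBG1 were at 0 in each library.

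Of the 10 transporter genes, 7 rose and 2 fell in overexpression, and SLC7A5 did not pass the test (edgeR quasi-likelihood test, adjusted p under 0.05). Over all 21055 genes tested, 22.6% were called higher and 23.4% lower. In each of the 10 genes the 3 overexpression libraries lay outside the range of the 3 vector libraries, 8 of them above and 2 below; of all genes tested, 58.7% had groups that did not overlap, 30.1% with overexpression above and 28.6% with it below. The median log2 fold change of the members was 0.56, and that of all genes tested was 0.02. Because the members were chosen with earlier results of these data known, these comparisons with all genes are descriptions. The largest rises were those of the glycine transporter gene SLC6A9, 6.60-fold, the cystine transporter gene SLC7A11, 4.54-fold, and the leucine transporter gene SLC43A1, 4.48-fold. The falls, of the glutamine transporter genes SLC38A1 and SLC38A2, were smaller than these rises, at -0.41 and -0.84 on the log2 scale. That of SLC38A2 was larger in size than the rises of SLC3A2, SLC7A1 and SLC1A4. In bulk RNA, fewer cells that express a gene and less RNA per cell cannot be told apart.

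**Figure D1:**
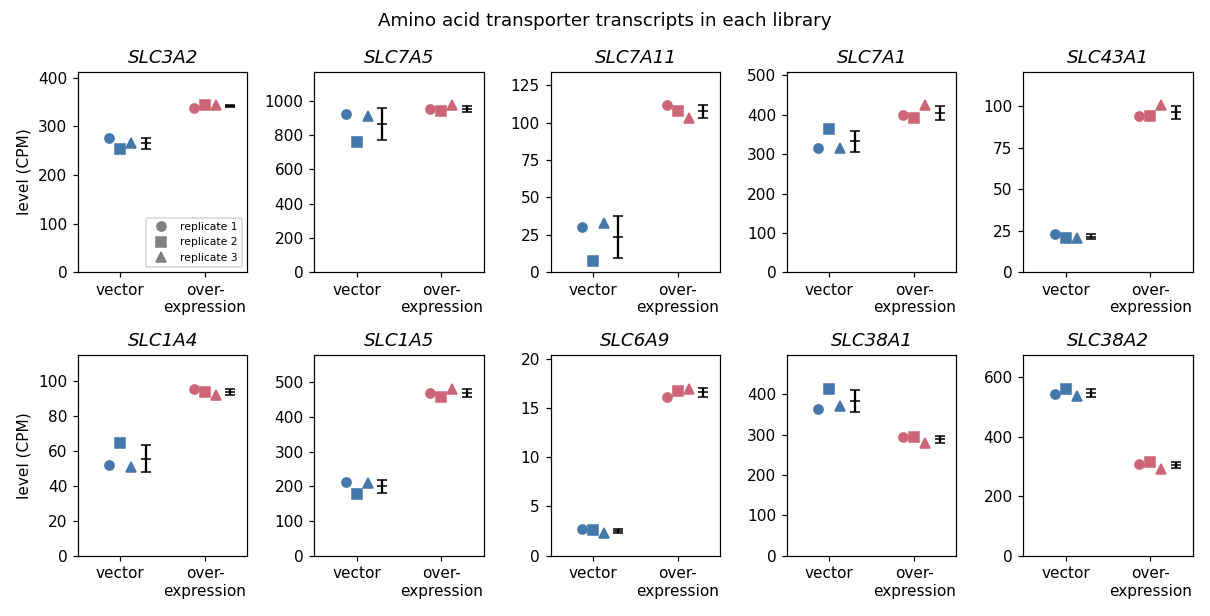
Levels of the 10 transporter transcripts in CPM (y axis, from 0, own scale per gene) in vector and overexpression libraries (x axis). Symbols stand for replicates, and the black dash with bars is the mean ± SD of 3 libraries; in SLC38A1 and SLC38A2 the vector libraries are higher, and in the other 8 genes the overexpression libraries are higher, with vector replicate 2 of SLC7A11 lowest at 7.81 CPM.

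SLC3A2, the heavy chain gene (chromosome 11, 62856102 to 62888875, plus strand, GENCODE 29 on GRCh38), had 339, 343 and 343 CPM in overexpression and 277, 253 and 265 CPM in vector. The overexpression libraries lay within 5 CPM of each other and all above the vector libraries. Its mean rose from 265 ± 12.2 to 342 ± 2.72 CPM (SD, n = 3 each), a log2 fold change of 0.37 ± 0.05 (SE; edgeR adjusted p = 0.000399).

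SLC7A5, the gene of the light chain LAT1 (chromosome 16, 87830023 to 87869488, minus strand), was the most abundant member. It had 950, 940 and 974 CPM in overexpression and 925, 761 and 909 CPM in vector. Vector replicate 2 was the lowest of the 6 libraries, and vector replicates 1 and 3 lay just under the overexpression libraries. The difference did not pass the test (0.14 ± 0.07 on the log2 scale, SE; edgeR adjusted p = 0.144). Without vector replicate 2 the log2 difference was 0.05 (edgeR adjusted p = 0.179). Rows of its pseudogenes SLC7A5P1 and SLC7A5P2, which resemble it in sequence, held at most 55 estimated counts in any library, against at least 53630 for SLC7A5, so few reads were assigned to these copies.

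SLC7A11, the gene of the light chain xCT (chromosome 4, 138164097 to 138242349, minus strand), had 112, 108 and 103 CPM in overexpression. In vector it had 30.5 and 33.0 CPM in replicates 1 and 3 and 7.81 CPM in replicate 2, where it was 4.07-fold lower than in the other 2. All overexpression libraries were above all vector libraries. The mean rose from 23.8 ± 13.9 to 107 ± 4.19 CPM (SD, n = 3 each), with a log2 fold change of 2.18 ± 0.44 (SE; edgeR adjusted p = 0.00406); without vector replicate 2 it was 1.75 (edgeR adjusted p = 5.5e-08). SLC7A11-AS1, an antisense gene whose annotated span overlaps it, had 146, 132 and 125 estimated counts in overexpression and 43, 19 and 60 in vector. It was lowest in the same vector library, and its log2 fold change was 1.69 ± 0.44 (SE; edgeR adjusted p = 0.0140). The strand setting of the counting is not given in the sources used here, so reads of the pair may not be separated; the antisense counts were small beside the 630 to 8015 of SLC7A11.

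Within a library, the ratio of a light chain to the heavy chain does not depend on how libraries are scaled. Levels per length, in CPM per kilobase of summed GENCODE 29 exons, were used for these ratios. The size of a ratio depends on this choice of length, while its log2 difference between the groups does not. The ratio of SLC7A5 to SLC3A2 was 3.06, 2.99 and 3.09 in overexpression and 3.65, 3.29 and 3.74 in vector. It was lower in each overexpression library than in any vector library. The ratio of SLC7A11 to SLC3A2 was 0.177, 0.168 and 0.161 in overexpression and 0.0592, 0.0166 and 0.0668 in vector, higher in each overexpression library. Exact two-sided permutation tests over the 6 libraries gave p = 0.1 for both, the smallest this design allows (adjusted p = 0.1 over 4 ratios). The log2 difference of the second ratio was 2.06, or 1.42 without vector replicate 2.

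SLC7A1 encodes CAT1, a carrier of arginine, lysine and ornithine that works without a heavy chain (chromosome 13, 29509410 to 29595688, minus strand). It had 400, 391 and 424 CPM in overexpression and 317, 363 and 317 CPM in vector. Vector replicate 2 was the highest vector library and still under the lowest overexpression library. The log2 fold change was 0.29 ± 0.06 (SE; edgeR adjusted p = 0.00724), the smallest rise among the called members.

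SLC43A1 encodes LAT3, a facilitative carrier of leucine and other large neutral amino acids that also needs no heavy chain (chromosome 11, 57484534 to 57515786, minus strand). It had 94.0, 94.0 and 100.5 CPM in overexpression and 23.2, 20.6 and 20.7 CPM in vector. The groups were far apart relative to the spread within them, and vector replicate 2 did not stand out. Its log2 fold change of 2.16 ± 0.07 (SE; edgeR adjusted p = 6.8e-07) had the smallest adjusted p of the 10 genes. The other leucine carrier of this family, SLC43A2 (LAT4), fell, as given below.

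SLC1A4 and SLC1A5 encode ASCT1 and ASCT2, sodium-dependent exchangers of neutral amino acids; ASCT1 handles alanine, serine and cysteine, and ASCT2 also takes up glutamine. SLC1A5 (chromosome 19, 46774883 to 46788594, minus strand) had 469, 457 and 482 CPM in overexpression and 212, 178 and 209 CPM in vector. Its lowest overexpression library was above all vector libraries, at a log2 fold change of 1.23 ± 0.07 (SE; edgeR adjusted p = 8.4e-06). SLC1A4 (chromosome 2, 64988477 to 65023865, plus strand) had 95.5, 93.4 and 91.6 CPM in overexpression and 51.8, 64.3 and 50.4 CPM in vector. It rose by less, with a log2 fold change of 0.75 ± 0.09 (SE; edgeR adjusted p = 0.000319), and here vector replicate 2 was the highest vector library while it was the lowest for SLC1A5. Their ratio per length, SLC1A4 to SLC1A5, was 0.0977, 0.0980 and 0.0913 in overexpression and 0.117, 0.173 and 0.116 in vector (exact permutation p = 0.1, n = 3 each; adjusted p = 0.1 over 4 ratios). It was lower in all overexpression libraries, with a log2 difference of -0.48, or -0.29 without vector replicate 2.

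SLC6A9 encodes GlyT1, a sodium- and chloride-coupled glycine transporter known from glia and erythroid cells (chromosome 1, 43991500 to 44031467, minus strand). It had 16.1, 16.7 and 17.0 CPM in overexpression and 2.66, 2.60 and 2.29 CPM in vector. This was the least abundant member and the one with the largest rise, a log2 fold change of 2.72 ± 0.13 (SE; edgeR adjusted p = 3.8e-06). Its counts in vector, 154, 210 and 155, were well above the floor of 12 estimated counts used for low values. Of 6 erythroid markers, 3 passed the expression filter; EPOR rose from 7.39 to 12.2 CPM, and KLF1, at 0.604 CPM in vector and 1.11 CPM in overexpression, did not pass the test (edgeR adjusted p = 0.0839). HBA1, whose reads may be shared with its near-identical copy HBA2, was called lower, with 20.3, 0.917 and 17.2 CPM in vector replicates 1 to 3 and at most 0.250 CPM in overexpression, so vector replicate 2 was far below the other 2 vector libraries. The part of these markers in the result was not tested.

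SLC38A1 and SLC38A2 encode SNAT1 and SNAT2, sodium-coupled carriers of glutamine, alanine and other small neutral amino acids, and they lie near each other on the minus strand of chromosome 12 (46183063 to 46270017 and 46358189 to 46372867). SLC38A2 had 308, 315 and 293 CPM in overexpression and 543, 562 and 536 CPM in vector. It was lower in each overexpression library, and the mean fell from 547 ± 13.6 to 305 ± 11.2 CPM (SD, n = 3 each), with a log2 fold change of -0.84 ± 0.05 (SE; edgeR adjusted p = 6.6e-06). SLC38A1 had 294, 293 and 279 CPM in overexpression and 364, 415 and 371 CPM in vector. It fell less, with a log2 fold change of -0.41 ± 0.06 (SE; edgeR adjusted p = 0.000781). The ratio of SLC38A1 to SLC38A2 per length was 0.629, 0.614 and 0.628 in overexpression and 0.442, 0.486 and 0.456 in vector, higher in all overexpression libraries (exact permutation p = 0.1, n = 3 each; adjusted p = 0.1 over 4 ratios). Of the 5 members with a C/EBP-ATF core in a window, SLC1A4, SLC1A5, SLC3A2 and SLC7A1 rose and SLC38A1 fell. SLC43A1, which rose, and SLC7A5, which did not pass the test, have no such core. Of the members with no match to any of the 3 motifs, SLC38A2 fell and SLC6A9 had the largest rise. The windows do not reach sites further from a start, SLC7A11 had no window, and a link between matches and direction was not tested.

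**Figure D2:**
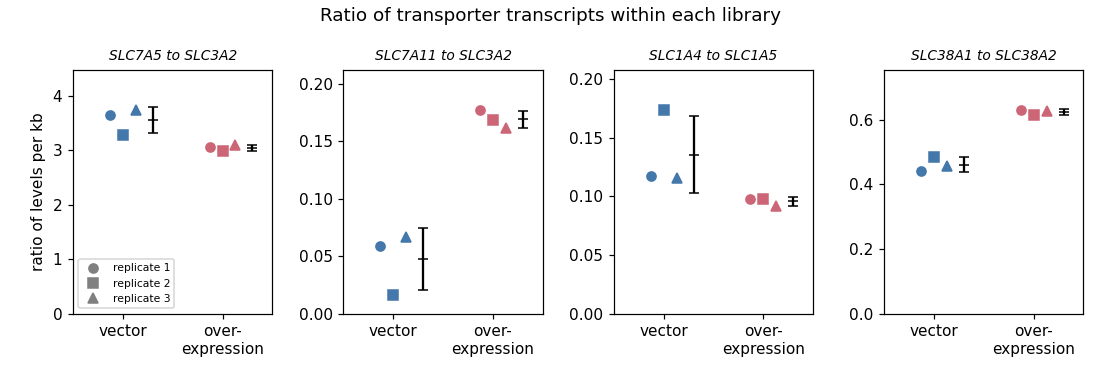
Ratios of levels per kilobase (y axis, from 0) of 4 transporter pairs within each library, by group (x axis). Symbols are replicates and the black dash with bars is the mean ± SD of 3 libraries; the ratios of SLC7A11 to SLC3A2 and of SLC38A1 to SLC38A2 are higher in overexpression and the other 2 are lower, with no overlap between the groups.

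The members also changed places in the order of levels per length. The lengths cover all annotated exons of a gene, not only those of the transcripts expressed, so the order between genes depends on this choice. In vector the order from the highest was SLC7A5 at 182 ± 19.1 CPM per kilobase, SLC38A2 at 82.8 ± 2.05, SLC1A5 at 59.9 ± 5.61, SLC3A2 at 51.2 ± 2.36, SLC7A1 at 43.2 ± 3.47 and SLC38A1 at 38.2 ± 2.75 (SD, n = 3). Well below them came SLC1A4 at 7.997 ± 1.10, SLC43A1 at 6.09 ± 0.409, SLC7A11 at 2.47 ± 1.44 and SLC6A9 at 0.488 ± 0.0381 CPM per kilobase. The vector libraries of SLC1A5 and SLC3A2 overlapped, as did those of SLC7A1 and SLC38A1, so neither pair is ordered beyond its spread. In overexpression SLC7A5 remained highest at 201 ± 3.66 CPM per kilobase, and SLC1A5 was next at 141 ± 3.69. There followed SLC3A2 at 65.99 ± 0.525, SLC7A1 at 52.7 ± 2.23, SLC38A2 at 46.2 ± 1.69, SLC38A1 at 28.8 ± 0.858 and SLC43A1 at 27.2 ± 1.06 CPM per kilobase. The lowest were SLC1A4 at 13.5 ± 0.279, SLC7A11 at 11.1 ± 0.434 and SLC6A9 at 3.22 ± 0.0868 CPM per kilobase. SLC38A1 and SLC43A1 overlapped there. SLC38A2 thus went from the second to the fifth place. Summed over the 10 genes, the level was 3079 ± 28.2 CPM in overexpression and 2695 ± 61.5 CPM in vector, given as a description.

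**Figure D3:**
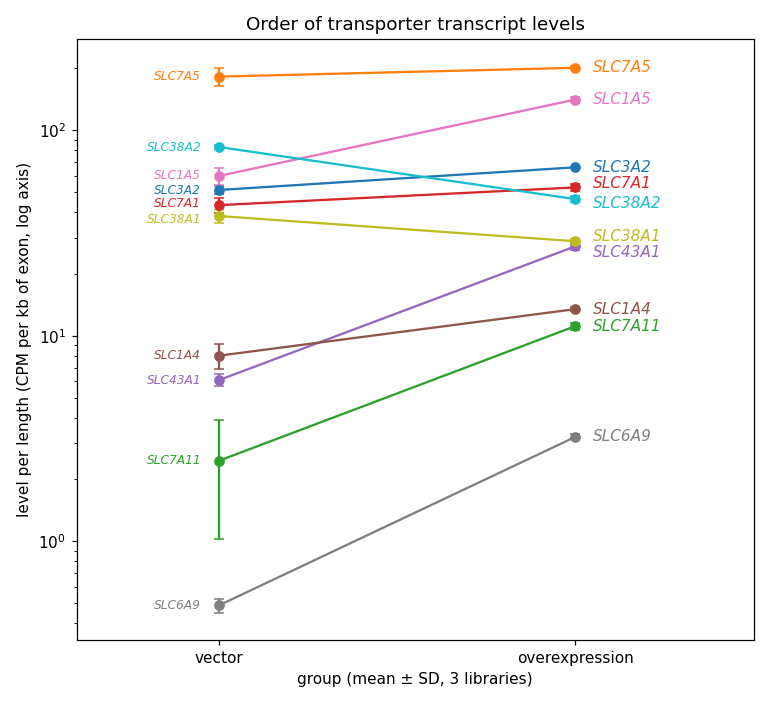
Mean level per length (y axis, CPM per kilobase of exon, log axis) of each transporter in vector and overexpression (x axis), with SD bars over 3 libraries. The mean is higher in overexpression for 8 genes and lower for SLC38A1 and SLC38A2, and the difference of SLC7A5 did not pass the test; SLC7A5 is highest and SLC6A9 lowest in both groups.

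Most of the other surface carriers of amino acids that were tested fell. Of 33 such genes listed, 14 passed the expression filter and 10 had no count in any library. Of the 14, 2 rose (14.3%), 9 fell (64.3%) and 3 did not pass the test. Over all genes tested, 22.6% were called higher and 23.4% lower. The median log2 fold change of the 14 was -0.64, and that of all genes tested was 0.02. Among the 9 falls, SLC36A3 had at most 2 estimated counts in any overexpression library. SLC6A6, the taurine transporter gene, had 119, 124 and 120 CPM in overexpression and 244, 263 and 235 CPM in vector, and fell by 1.03 on the log2 scale (edgeR adjusted p = 5.8e-06). SLC43A2 had 6.65, 6.57 and 5.32 CPM in overexpression and 22.8, 41.4 and 21.6 CPM in vector. It fell by 2.21 on the log2 scale (edgeR adjusted p = 0.000256), against the rise of SLC43A1. SLC6A20, a proline transporter gene, had 8.09, 7.39 and 8.09 CPM in overexpression and 33.0, 82.6 and 29.9 CPM in vector; its log2 fold change was -2.63 ± 0.38 (SE), or -2.01 without vector replicate 2. SLC1A3, the glutamate transporter EAAT1 gene, fell from 3.33 ± 0.574 to 0.486 ± 0.196 CPM (SD, n = 3).

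The rises in that list were those of SLC38A3, a glutamine transporter gene, and SLC7A8, the gene of the light chain LAT2. SLC38A3 rose from 0.729 ± 0.231 to 1.77 ± 0.470 CPM, and SLC7A8 from 4.19 ± 0.0618 to 6.76 ± 1.69 CPM (SD, n = 3). Neither call held without overexpression replicate 1 (edgeR adjusted p = 0.0541 and 0.0910) or without overexpression replicate 3 (0.0635 and 0.0711), and that of SLC7A8 was lost also without vector replicate 1 (0.0580) or 3 (0.0628). Among the known partners of SLC3A2, the following were picked after their values were seen. SLC7A6, which encodes the light chain y+LAT2, had a log2 fold change of -0.54 ± 0.07 (SE; edgeR adjusted p = 0.000398). SLC7A7, which encodes the light chain y+LAT1, had one of -0.29 ± 0.28 (SE; edgeR adjusted p = 0.426), and SLC7A10 had no count. The partner genes of the heavy chain therefore differed in direction: SLC7A11 and SLC7A8 rose, SLC7A6 fell, and SLC7A5 and SLC7A7 did not pass the test.

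**Figure D4:**
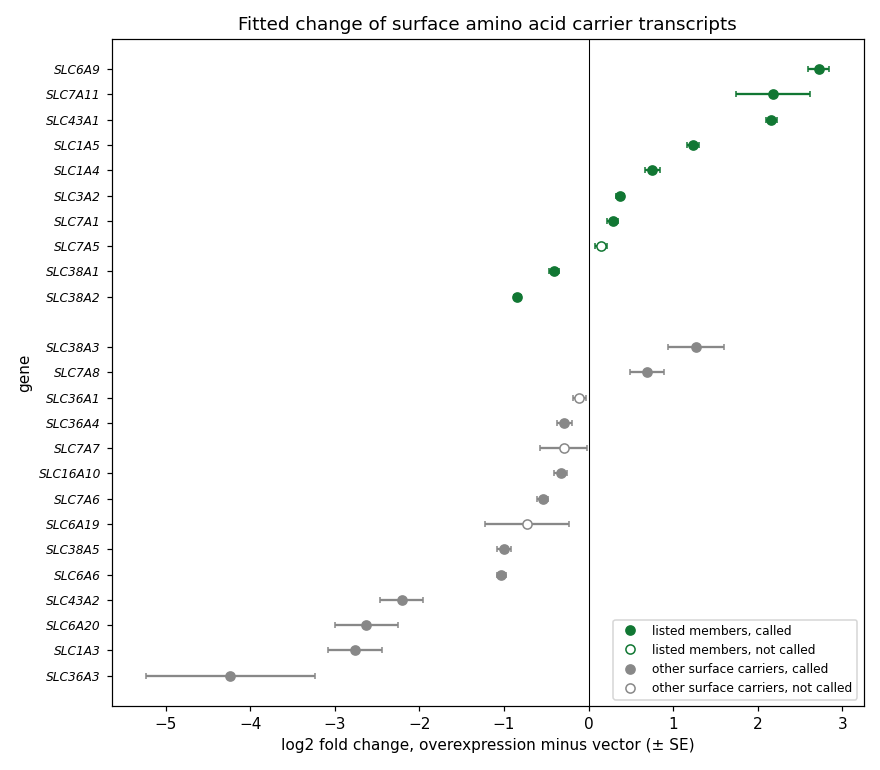
Fitted log2 fold change ± SE (x axis, overexpression minus vector) of the 10 members (green) and the 14 other surface carriers that were tested (grey), 1 gene per line; filled points passed the test. The members range from -0.84 for SLC38A2 to 2.72 for SLC6A9, and most grey points lie below 0; SLC36A3 was near 0 in overexpression, so its fitted size is uncertain.

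Taken over both directions, mitochondrial and lysosomal carriers were called about as often as genes in general. Of 22 listed, 19 were tested, and 3 rose (15.8%), 7 fell (36.8%) and 9 did not pass. So 52.6% were called, against 46.1% of all genes tested, of which 22.6% were higher and 23.4% lower. The median log2 fold change was -0.04. Among the falls, SLC25A18 was near the floor of 12 used for low values, with 10, 26 and 13 estimated counts in overexpression and 27, 51 and 46 in vector. SLC25A29, a mitochondrial carrier gene of basic amino acids, rose from 122 ± 10.5 to 210 ± 4.59 CPM (SD, n = 3), and SFXN3, a sideroflexin gene, rose by 0.54 ± 0.05 (SE) on the log2 scale. SLC25A22, a mitochondrial glutamate carrier gene, rose by 0.42 ± 0.06 (SE) on the log2 scale. Among genes with a mean of at least 1 CPM, the falls with the largest size were those of SLC15A4, a lysosomal histidine and peptide transporter gene, from 55.8 ± 4.88 to 23.3 ± 1.12 CPM, and of SLC25A15, the mitochondrial ornithine carrier gene, from 75.3 ± 11.1 to 49.9 ± 2.98 CPM. MFSD12, which is needed for lysosomal cysteine import, and SLC25A38, a mitochondrial glycine carrier gene, fell by 0.53 and 0.50 on the log2 scale. Among the 245 other tested symbols of the solute carrier form, 46 were higher (18.8%) and 90 lower (36.7%), with a median log2 fold change of -0.20.

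Regulators that are known to act on transporter genes moved both ways. Of 24 listed, 23 were tested, 10 rose, 9 fell and 4 did not pass, with a median log2 fold change of 0.12. That is 43.5% higher and 39.1% lower, against 22.6% and 23.4% of all genes tested. ATF4 itself had 702, 710 and 694 CPM in overexpression and 519, 447 and 514 CPM in vector, and rose by 0.51 ± 0.06 (SE) on the log2 scale (edgeR adjusted p = 0.00029). JDP2, TRIB3, ATF5 and DDIT3, genes of factors of the amino acid and stress response, had log2 fold changes of 2.58 ± 0.25, 2.35 ± 0.08, 1.62 ± 0.13 and 1.26 ± 0.14 (SE). NFE2L2 fell from 68.6 ± 4.53 to 50.3 ± 2.04 CPM (SD, n = 3), and EIF2S1, the gene of translation factor eIF2 alpha, fell by 0.45 on the log2 scale. MYCN had the largest fall of the list, at -1.81 ± 0.16 (SE) on the log2 scale. MYC had 303, 303 and 304 CPM in overexpression and 381, 620 and 381 CPM in vector. Vector replicate 2 was the highest; the log2 fold change was -0.60 ± 0.17 (SE; edgeR adjusted p = 0.0216), or -0.34 without that library, and the call was lost without overexpression replicate 1, 2 or 3 (edgeR adjusted p = 0.0698, 0.0706 and 0.0729).

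Genes listed for the control of transporters at the membrane moved in both directions too. The list also holds the carrier gene SLC16A1 and the channel gene LRRC8A, which are counted with it. Of 12 listed and tested, 4 rose and 5 fell. These are 33.3% and 41.7% of a short list, against 22.6% higher and 23.4% lower of all genes tested. Among the falls, CD44 had 12, 4 and 8 estimated counts in overexpression and 106, 12 and 90 in vector, and its groups overlapped. TXNIP and ARRDC4, arrestin-domain genes known for removing glucose transporters from the surface, had log2 fold changes of 2.16 ± 0.21 and 1.33 ± 0.15 (SE). ARRDC3, of the same family, had one of 0.74 ± 0.19, and its call was lost without overexpression replicate 1 (edgeR adjusted p = 0.0615). NEDD4, a ubiquitin ligase gene, rose by 0.51 ± 0.08 on the log2 scale, and ITCH, another, fell by 0.27. LRRC8A, which encodes a subunit of volume-regulated anion channels, fell from 74.7 ± 2.20 to 37.9 ± 1.95 CPM, and SLC16A1, the lactate transporter MCT1 gene, from 183 ± 23.1 to 93.4 ± 6.76 CPM (SD, n = 3). BSG, whose product basigin is the surface partner of MCT1, had a log2 fold change of -0.22 ± 0.04 (SE).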

How the data were processed

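The authors deposited 1 table of whole-number expected counts (estimated counts) per gene symbol and library, whose totals differ between libraries. The genome build was hg38 and the tools were STAR 2.7.10a, fastp 0.23.2, DESeq2 and StringTie, per the submitters' processing notes, which give no roles here; annotation release and strand setting are not given in the sources used here. In each column 4 occurred more often than 3, as if 1 read pair added about 4, but 1 was the most frequent value above 0, which such a unit does not give. The unit is therefore not settled, no counting intervals are given, and the floor of 12 estimated counts per library (3 pairs of 4) is a convention.

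Genes passing edgeR's default filter (edgeR 4.0.16, R 4.3.3) entered a quasi-likelihood fit on group alone after TMM scaling, tested over all genes by its F test with Benjamini-Hochberg adjustment and a threshold of 0.05. SEs were derived from the F statistic; CPM uses TMM-adjusted library sizes. The fit was tested on simulated data. Ratios were compared by exact two-sided permutation. Exon lengths and positions came from GENCODE 29 (GRCh38, the assembly of hg38), and 1 listed gene had none. The members, lists, tests and alternatives were chosen with earlier results of these data known. Named were all members, up to 4 called genes of largest rise and fall per list at a mean of at least 1 CPM, and ATF4, NFE2L2 and MYC; marker genes and other partners of SLC3A2 were named outside that rule. Alternatives were DESeq2 1.42.0, limma-voom (limma 3.58.1), edgeR with upper-quartile factors or with DESeq2 size factors, a filter at a mean of 1 CPM and 50 estimated counts (stricter), none at all, the replicate block, values divided by 4, each library left out and, for ratios, no division by length. Figures were drawn with matplotlib 3.10.9.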

Additional observations from a re-analysis of the deposited data

How the results depend on the processing

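In each of the 14 alternatives the 10 members kept their direction and their side of the threshold: 7 were called higher and 2 lower, and SLC7A5 was called in none, with its adjusted p as low as 0.0527 with upper-quartile factors. The members' median log2 fold change ranged from 0.52 to 0.61. That of SLC7A11 ranged from 1.75 without vector replicate 2 to 2.52 with limma-voom. With the replicate number as a block (replicate block), 7 members were again higher and 2 lower, and SLC7A11 had a log2 fold change of 2.38. Same-numbered libraries did not deviate together (correlations -0.04, 0.02 and 0.05), and not every library correlated best with its own number. Such weak correlations cannot show whether same-numbered libraries were handled together, which is not stated. The 2 rises among other surface carriers were 0 to 2 when 1 library was left out, and the falls 8 to 10. Among mitochondrial and lysosomal carriers the 7 falls were 5 with the replicate block and without overexpression replicate 2 or 3. Of the 31 other named genes, 27 kept their call throughout; the exceptions were SLC38A3, SLC7A8, MYC and ARRDC3, when 1 library was left out. The unsettled unit of the counts limits values near the floor, which no member approached.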
